A study of Mus musculus with 18 samples.

Results

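The immediate early response genes described here were 10 genes, Fos, Fosb, Jun, Junb, Atf3, Egr1, Klf6, Nr4a1, Dusp1 and Ier2. They were taken by gene name from the 54232 genes of the count table. The list of names was made with earlier results of these data known. Lacrimal glands (LGs), the exocrine glands that secrete the watery part of the tear film, were profiled by bulk RNA-seq. The glands came from male mice of the strains BALB/cJ (BALB/c, the control) and NOD.B10Sn-H2b/J (NOD.H-2b, a model of Sjögren's syndrome in which leukocytes infiltrate the gland). Both strains were sampled at an age of 2 months (2M), 4 months (4M) and 6 months (6M), with 3 mice in each of the 6 groups. Each of the 18 samples was 1 gland from 1 untreated mouse, so the replicates were different animals. The controls are another inbred strain, so that disease and genetic background cannot be told apart in any strain difference.

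Immediate early genes are transcribed within minutes of a stimulus, without new protein synthesis, by factors that are already present in the cell. Growth factors, calcium, cAMP, stress and injury reach them through several kinases, the MAP kinases among them. These kinases act on serum response factor with its ternary complex partners or on CREB. Most members encode transcription factors. Fos, Fosb, Jun, Junb and Atf3 encode basic leucine zipper proteins that pair into the AP-1 complex or bind cAMP response elements. Egr1 and Klf6 encode zinc finger factors, and Nr4a1 encodes an orphan nuclear receptor. Dusp1 encodes a phosphatase that switches MAP kinases off, and Ier2 a nuclear protein with transcriptional activity. The same genes respond to the dissection of a tissue. In this study each gland was cleaned of its capsule in cold saline and then held in RNAlater until all glands had been collected. The time from death to RNAlater is not given in the sources used here, so a difference between mice in handling cannot be told apart from one between the animals.

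The upstream sequence of 4 members is shown because Fos and Fosb varied most between mice, Klf6 varied little, and Dusp1 held the longest form of the motif looked for. Each is the 250 bases before the RefSeq start site in the C57BL/6J reference, build GRCm38.p6, 5′ to 3′ on the gene's strand. Capitals mark TGACG or its reverse complement CGTCA, the core of the cAMP response element (CRE) bound by CREB and ATF proteins.
Fos, chr12:85473640-85473889, plus strand: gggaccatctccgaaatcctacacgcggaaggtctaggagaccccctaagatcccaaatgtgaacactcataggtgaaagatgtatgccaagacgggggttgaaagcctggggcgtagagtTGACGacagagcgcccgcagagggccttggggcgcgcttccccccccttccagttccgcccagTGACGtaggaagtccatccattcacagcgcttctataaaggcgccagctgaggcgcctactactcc
Fosb, chr7:19310046-19310295, minus strand: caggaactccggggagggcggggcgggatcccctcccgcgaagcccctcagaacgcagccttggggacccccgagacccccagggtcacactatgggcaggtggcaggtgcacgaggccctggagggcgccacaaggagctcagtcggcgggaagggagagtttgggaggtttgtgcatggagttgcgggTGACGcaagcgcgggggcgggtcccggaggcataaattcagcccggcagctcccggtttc
Dusp1, chr17:26508473-26508722, minus strand: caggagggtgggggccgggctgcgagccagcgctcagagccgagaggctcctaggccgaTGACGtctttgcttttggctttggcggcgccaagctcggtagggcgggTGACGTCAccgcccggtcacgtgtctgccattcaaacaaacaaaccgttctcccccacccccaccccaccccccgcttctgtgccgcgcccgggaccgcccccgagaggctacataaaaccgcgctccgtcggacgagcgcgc
Klf6, chr13:5861239-5861488, plus strand: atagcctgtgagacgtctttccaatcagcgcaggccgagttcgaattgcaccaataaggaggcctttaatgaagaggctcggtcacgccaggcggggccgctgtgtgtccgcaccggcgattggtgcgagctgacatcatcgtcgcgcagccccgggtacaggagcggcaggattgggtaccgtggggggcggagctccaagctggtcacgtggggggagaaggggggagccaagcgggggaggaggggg
Fos held the core at 129 to 125 and at 66 to 62 bases before the start, with a TATA box (TATAAA) at 33 to 28. The Fosb window held it once, 60 to 56 bases before the start. Dusp1 had the full palindrome TGACGTCA at 143 to 136, which itself reads as the core on both strands, and a separate core at 191 to 187. Klf6 had none in this window. A RefSeq promoter was matched for 8 of the 10 members, all but Egr1 and Ier2. The core, searched on both strands, lay in 6 of these 8 (Atf3, Dusp1, Fos, Fosb, Junb and Nr4a1) and in 17.8% of all 32851 promoters of that length. The full palindrome was in 1 of 8 and in 1.55% of all promoters, and the AP-1 motif TGANTCA was in 0 of 8 and in 6.75% of all. The CArG box bound by serum response factor was in 0 of 8 windows and in 1.47% of all promoters. A match is a description of the letters only, and these windows do not reach sites further upstream.

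In the count table the members lay on 9 chromosomes (GRCm38, GENCODE M21): Fos at chr12:85473890-85477273, Fosb at chr7:19302696-19310051, Jun at chr4:95049034-95052222, Junb at chr8:84974484-84978718 and Ier2 at chr8:84661331-84662852. Egr1 was at chr18:34859823-34864984, Atf3 at chr1:191170296-191218039, Klf6 at chr13:5861482-5870394, Nr4a1 at chr15:101254269-101274795 and Dusp1 at chr17:26505590-26562128. Jun shares 232 exon bases with Junos on the other strand, Junb 173 with Prdx2, and Dusp1 11 with other genes. Whether the counting used strand is not stated, so reads in these bases cannot be assigned with certainty. Library totals ran from 49480781 to 103936830 counts, and the 10 most abundant genes took 35.6 to 41.4% of each. The acinar marker list summed to between 56910 and 102616 CPM (counts per 1000000 counts of the library) in every gland, with all 8 of its genes detected in every group. Levels below are CPM on TMM-scaled library sizes of the 18-mouse table.

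**Figure D1:**
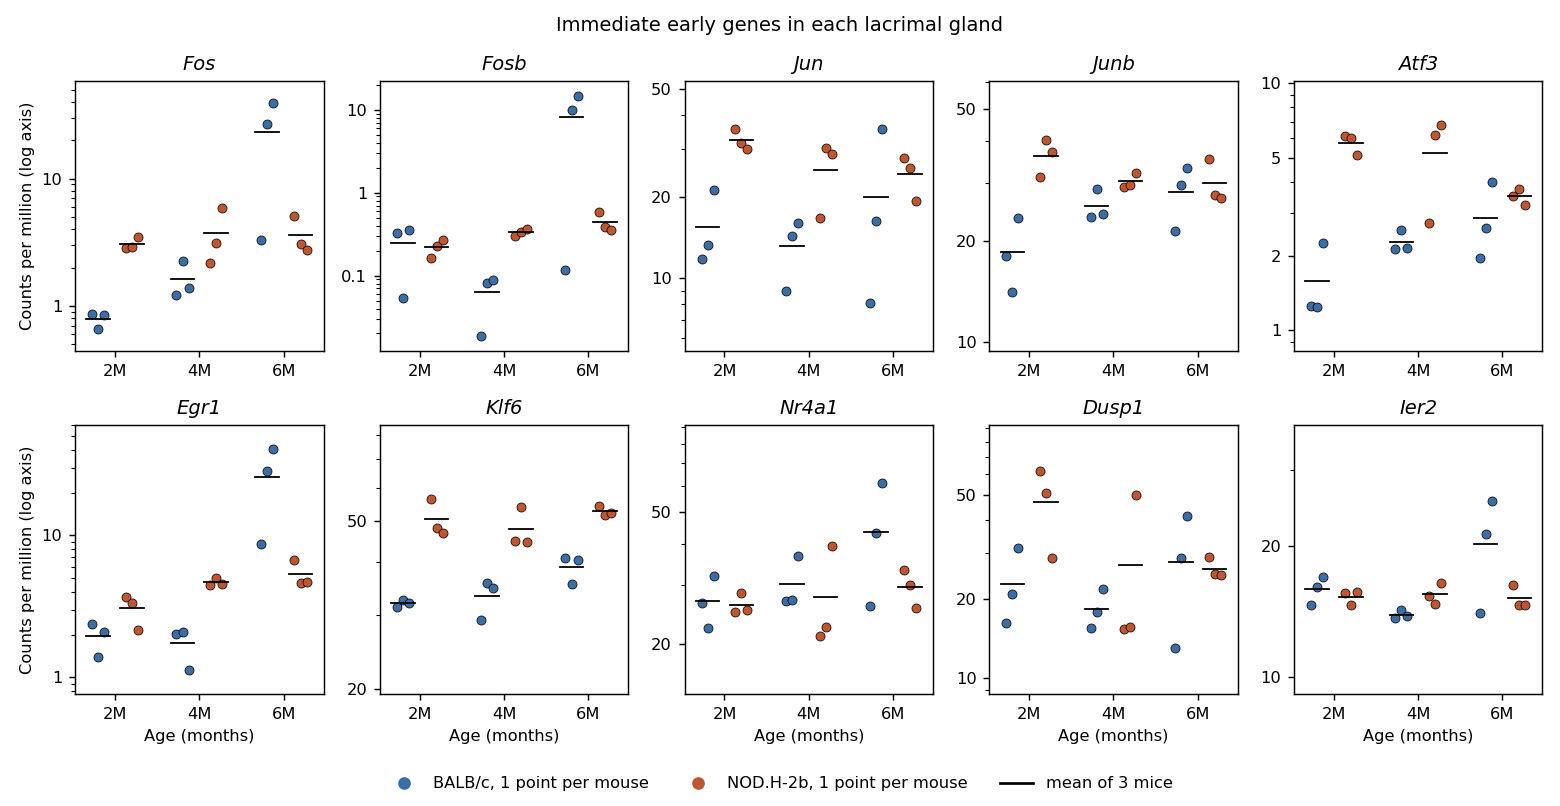
CPM of the 10 immediate early genes in each of the 18 LGs on a log axis, with 1 point per mouse in replicate order within each group and a line at the mean of 3 mice. Fos, Fosb and Egr1 stood far above the other glands in 2 of the 3 BALB/c 6M mice, while Klf6 was higher in every NOD.H-2b gland than in every BALB/c gland.

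All 10 members were detected in all 18 mice, at levels that differed widely. Per kilobase of exon, the median over the 18 mice was highest for Junb (12.6 CPM per kb), followed by Ier2 (9.89), Klf6 (9.76), Nr4a1 (7.69), Dusp1 (7.49) and Jun (6.36). Atf3 (1.38), Fos (1.23) and Egr1 (0.908) were lower by this measure, and Fosb (0.0503) was the lowest. The spread between mice was widest for the members with the lowest levels. The highest gland was 806-fold above the lowest for Fosb, 58.6-fold for Fos and 35.7-fold for Egr1, against 1.93-fold for Klf6 and 1.86-fold for Ier2. The other 5 members spanned 2.87-fold (Junb) to 5.50-fold (Atf3). Fosb was counted from 1 to 635 times per library, so its low values rest on few reads.

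At 2M, 6 of the 10 members were upregulated in the NOD.H-2b LG and 0 were downregulated (edgeR's quasi-likelihood test, Benjamini-Hochberg adjusted p under 0.05 over 17200 genes). The background was 22.5% of all genes tested called higher, 17.2% lower and 39.8% either way. The groups did not overlap for 5 members (Fos, Jun, Junb, Atf3, Klf6), each with NOD.H-2b higher, against 25.3% of all genes, and 28% of all genes lay lower without overlap. The median log2 fold change of the members was 0.85, beside 0.01 for all genes tested.

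Fos, the AP-1 subunit that pairs with the Jun proteins, was at 0.860, 0.664 and 0.847 CPM in the BALB/c 2M mice and at 2.86, 2.91 and 3.46 CPM in the NOD.H-2b 2M mice. Every NOD.H-2b gland was above every BALB/c gland, and the fold change was 4.00 (log2 2.00 ± 0.20 SE, edgeR adjusted p = 1.50e-05). Atf3, a CREB family factor induced by stress, was at 1.26, 1.24 and 2.26 CPM in BALB/c against 6.11, 6.03 and 5.11 CPM in NOD.H-2b. It was 3.72-fold higher in NOD.H-2b (log2 1.90 ± 0.22, edgeR adjusted p = 7.05e-05). Klf6, a zinc finger factor of the Sp1-like family, was at 31.4, 32.6 and 31.9 CPM against 56.4, 48.1 and 46.9 CPM. The Klf6 fold change was smaller, 1.62 (log2 0.70 ± 0.068, edgeR adjusted p = 1.15e-05), with little spread within either strain. These 3 calls were kept without any 1 of the 6 mice.

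Jun, the founding AP-1 subunit, was at 11.8, 13.2 and 21.2 CPM in the BALB/c 2M mice and at 35.6, 31.5 and 29.9 CPM in the NOD.H-2b 2M mice. It was 2.16-fold higher (log2 1.11 ± 0.24, edgeR adjusted p = 0.0175). Junb, an AP-1 subunit that can restrain Jun activity, was at 18.0, 14.1 and 23.6 CPM against 31.2, 40.4 and 37.1 CPM, a 2.01-fold difference (log2 1.01 ± 0.21, edgeR adjusted p = 0.0143). Egr1, a zinc finger factor of growth responses, was at 2.39, 1.40 and 2.08 CPM against 3.68, 3.32 and 2.17 CPM, and its strains overlapped. Its fold change of 1.61 (log2 0.68 ± 0.24, edgeR adjusted p = 0.0444) was past the threshold by little. The Jun call was lost without BALB/c replicate 2 or NOD.H-2b replicate 1 or 2, with adjusted p up to 0.0729. The Junb call was lost without BALB/c replicate 1 or NOD.H-2b replicate 2 or 3 (up to 0.0660). That of Egr1 was lost without BALB/c replicate 2 or 3 or NOD.H-2b replicate 1 or 2 (up to 0.152). In a single fit of all 18 mice, whose spread includes the BALB/c 6M mice, Klf6, Atf3 and Junb remained called at 2M, while Fos, Jun and Egr1 were not (edgeR adjusted p = 0.0581, 0.0782 and 0.314).

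The other 4 members did not pass the test at 2M. Dusp1 was at 16.2, 20.8 and 31.2 CPM in BALB/c and at 62.0, 50.7 and 28.7 CPM in NOD.H-2b. Its fitted 2.13-fold difference missed the threshold (log2 1.09 ± 0.41, edgeR adjusted p = 0.108). NOD.H-2b replicate 3 lay below the highest BALB/c gland. Nr4a1 ran from 22.3 to 32.0 CPM in BALB/c and from 24.8 to 28.4 CPM in NOD.H-2b. Ier2 ran from 14.6 to 17.0 CPM and from 14.6 to 15.6 CPM. For both, the log2 difference was within 0.02 of 0 with standard errors of 0.13 and 0.075. Fosb was at 0.325, 0.0539 and 0.353 CPM against 0.164, 0.228 and 0.267 CPM, and its standard error of 0.58 on the log2 scale left its direction undetermined.

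At 4M, 5 members were upregulated in the NOD.H-2b LG and 0 were downregulated, against 23.4% of 17722 genes called higher, 19.2% lower and 42.6% either way. The groups did not overlap for 7 members, all with NOD.H-2b higher (Fosb, Jun, Junb, Atf3, Egr1, Klf6, Ier2), against 28.4% of all genes with NOD.H-2b higher and 27% with NOD.H-2b lower. Fosb, Egr1 and Klf6 kept their calls without any 1 of the 6 mice. Fosb, a Fos paralog, was at 0.0184, 0.0813 and 0.0895 CPM in BALB/c, which is 1, 4 and 6 counts, and at 0.303, 0.340 and 0.360 CPM in NOD.H-2b, which is 20, 22 and 18 counts. The fitted log2 fold change was 2.35 ± 0.54 (edgeR adjusted p = 0.00597). Egr1 was at 2.03, 2.07 and 1.13 CPM in BALB/c and at 4.46, 5.04 and 4.53 CPM in NOD.H-2b, 2.71-fold higher (log2 1.44 ± 0.23, edgeR adjusted p = 0.000821). Klf6 was at 29.2, 35.7 and 34.7 CPM against 45.0, 54.1 and 44.7 CPM, 1.45-fold higher (log2 0.54 ± 0.10, edgeR adjusted p = 0.00223).

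Fos and Atf3 were also called at 4M, with more spread among the NOD.H-2b mice. Fos was at 1.22, 2.26 and 1.37 CPM in BALB/c and at 2.18, 3.11 and 5.85 CPM in NOD.H-2b, so that NOD.H-2b replicate 1 lay below the highest BALB/c gland. Its fold change was 2.30 (log2 1.20 ± 0.40, edgeR adjusted p = 0.0445), and the call was lost in 4 of the 6 fits that left out 1 mouse: BALB/c replicate 1 or 3, or NOD.H-2b replicate 2 or 3. Atf3 was at 2.14, 2.56 and 2.15 CPM against 2.72, 6.18 and 6.81 CPM (log2 1.20 ± 0.32, edgeR adjusted p = 0.0176). Its call was lost without BALB/c replicate 1 or 3 or NOD.H-2b replicate 2. Jun was at 8.98, 14.3 and 16.0 CPM against 16.6, 30.1 and 28.8 CPM, and Junb at 23.7, 28.7 and 24.2 CPM against 29.2, 29.5 and 32.0 CPM. Both missed the threshold although their groups did not overlap (edgeR adjusted p = 0.0623 and 0.0503). Dusp1, at 15.3, 15.6 and 49.8 CPM in NOD.H-2b, was high in replicate 3 alone of that group. In the single fit of all 18 mice Egr1, Atf3 and Klf6 remained called at 4M, while Fos and Fosb were not (edgeR adjusted p = 0.182 and 0.244).

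**Figure D2:**
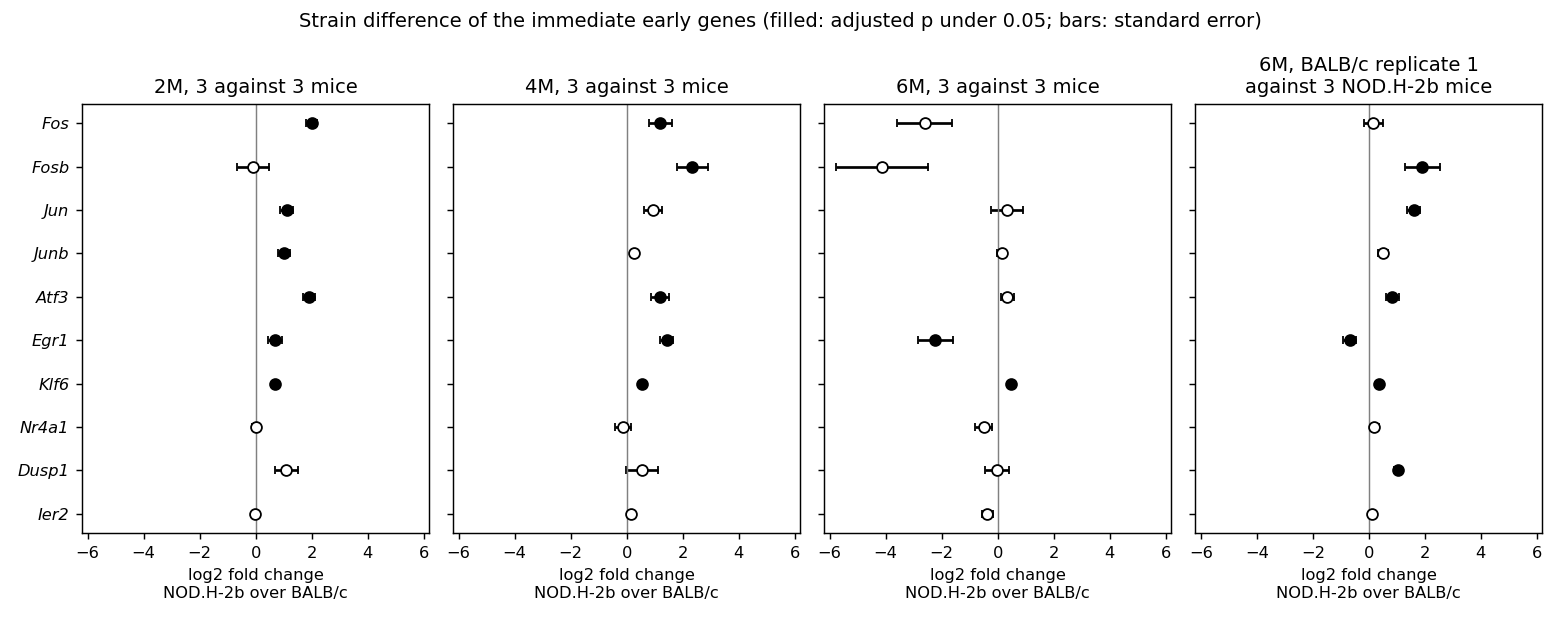
log2 fold change of NOD.H-2b over BALB/c with its standard error for each member at 2M, 4M and 6M, and at 6M with BALB/c replicates 2 and 3 left out; filled points have an edgeR adjusted p under 0.05. At 6M with all mice Fos lay at −2.60 and Fosb at −4.14 with wide errors, whereas with BALB/c replicate 1 alone they lay at 0.16 and 1.91.

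At 6M the BALB/c mice differed widely from each other. Only Klf6 was upregulated and only Egr1 downregulated in the NOD.H-2b LG, against 28.6% of 17750 genes called higher, 25.8% lower and 54.4% either way. The groups did not overlap for these same 2 members, against 31.3% of all genes with NOD.H-2b higher and 33.4% with NOD.H-2b lower. Klf6 was at 41.0, 35.5 and 40.4 CPM in BALB/c and at 54.4, 51.8 and 52.2 CPM in NOD.H-2b (1.39-fold, log2 0.47 ± 0.077, edgeR adjusted p = 0.000563). Egr1 was at 8.69, 28.7 and 40.4 CPM in BALB/c and at 6.68, 4.62 and 4.68 CPM in NOD.H-2b. It was 4.69-fold lower in NOD.H-2b (log2 −2.23 ± 0.63, edgeR adjusted p = 0.0370), and this call was lost in 5 of the 6 fits that left out 1 mouse, all but the one without BALB/c replicate 1.

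Fos was at 3.27, 26.9 and 38.9 CPM in the BALB/c 6M mice and at 5.07, 3.05 and 2.75 CPM in the NOD.H-2b 6M mice. Fosb was at 0.118, 9.93 and 14.8 CPM in BALB/c and at 0.588, 0.385 and 0.351 CPM in NOD.H-2b. For both genes BALB/c replicates 2 and 3 stood above all other glands and replicate 1 lay among the rest. With that spread both fitted differences missed the threshold. Fos was at log2 −2.60 ± 0.99 (edgeR adjusted p = 0.0843) and Fosb at log2 −4.14 ± 1.65 (edgeR adjusted p = 0.0952). Jun, at 8.07, 16.3 and 35.4 CPM, and Dusp1, at 12.9, 28.8 and 41.5 CPM, were likewise lowest in BALB/c replicate 1 and highest in replicate 3, while the NOD.H-2b mice were at 19.3 to 27.7 CPM of Jun and 24.7 to 28.8 CPM of Dusp1. The remaining members showed the same order of the BALB/c mice with smaller ratios, except Klf6.

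At 6M the Fos and Fosb differences and the size of that of Egr1 rested on BALB/c replicates 2 and 3. Fosb was 84.1-fold higher in replicate 2 and 126-fold higher in replicate 3 than in replicate 1, Fos 8.21-fold and 11.9-fold, and Egr1 3.30-fold and 4.65-fold. For Nr4a1 the ratios were 1.66 and 2.35, for Ier2 1.52 and 1.81, and for Klf6 0.865 and 0.985. In 5 members (Fos, Fosb, Egr1, Nr4a1, Ier2) both mice were above all 16 other glands. Of the 19117 genes in the 18-mouse table, 4 were at least 2-fold higher in both mice than in every other gland (0.0209%), and 3 of them were Fosb, Fos and Egr1. The fourth was Cyr61, a matricellular immediate early gene, at 13.9 and 21.9 CPM against at most 4.33 CPM elsewhere. The other 17 pairs of mice within a group gave 0 to 5 such genes, none of them a member. These pairs and the gene count were examined after the values had been seen.

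Replicate 3 of the BALB/c 6M group was also high in the heat shock genes named next. Replicate 2 was above replicate 1 by much less in Hspa1b and Hspa1a, and was not above it in Hsph1 or Hspa8. Hspa1b, the inducible Hsp70 chaperone, was at 2.91, 4.60 and 56.4 CPM in the 3 BALB/c 6M mice and its neighbour Hspa1a at 1.28, 2.17 and 17.5 CPM. Hsph1 was at 28.5, 28.1 and 141 CPM and Hspa8, the constitutive Hsc70, at 107, 85.8 and 356 CPM. The library of replicate 1 held 103936830 counts, against 52244088 and 50032070 in replicates 2 and 3. The pan leukocyte markers (Ptprc, Coro1a, Laptm5 and Cd52, all detected) summed to 22.2, 28.3 and 21.5 CPM in these 3 mice. Of the 16 marker lists, 3 were, like most members, lowest in replicate 1 and highest in replicate 3: myoepithelial (84.8, 106 and 117 CPM), mast cell (17.2 to 23.6 CPM) and neutrophil (0.773, 1.19 and 1.43 CPM). The part of depth, of the heat shock genes and of these cell types in the Fos, Fosb and Egr1 levels was not tested.

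**Figure D3:**
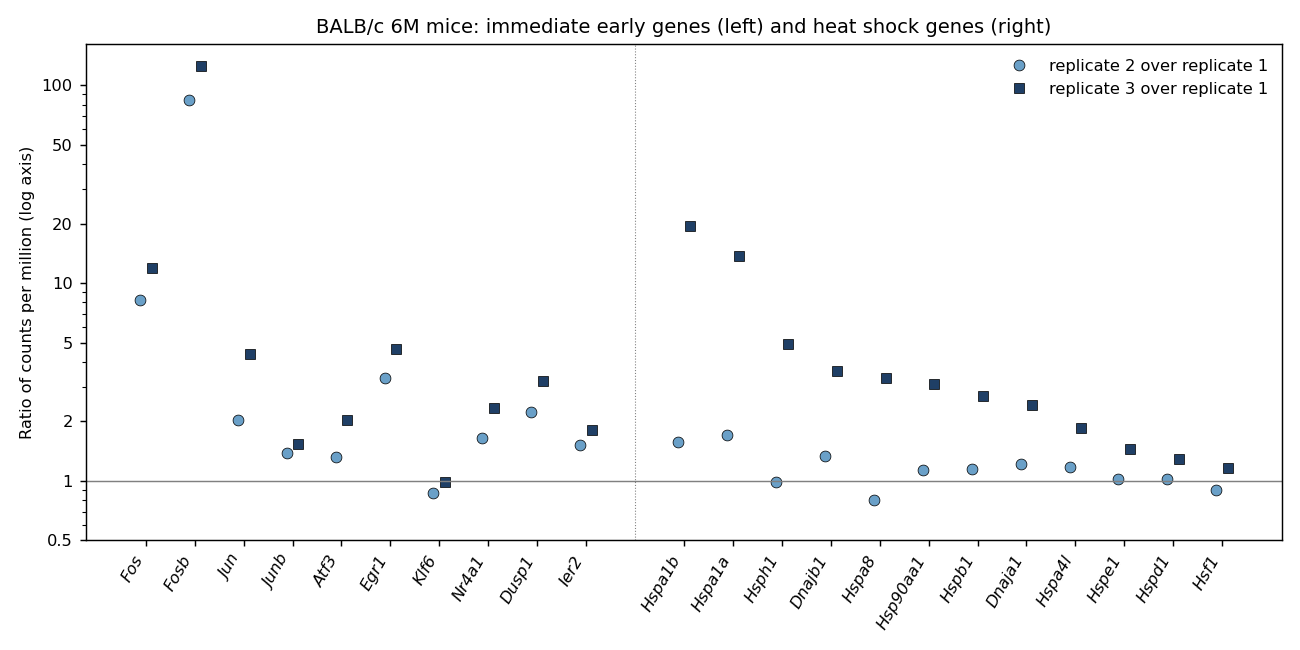
Ratio of CPM in BALB/c 6M replicates 2 and 3 to replicate 1 on a log axis, for the 10 immediate early genes and for 12 heat shock genes. Both replicates were high in Fosb, Fos and Egr1 and near 1 in Klf6, while Hspa1b and Hspa1a were far above 1 in replicate 3 only.

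With replicates 2 and 3 left out, which was tried after the values had been seen and leaves 1 BALB/c mouse whose spread is taken from the other group, 6 members were called at 6M, 5 of them higher in NOD.H-2b, against 36.1% of all genes called either way. Jun was then 3.03-fold higher (log2 1.60 ± 0.22, edgeR adjusted p = 0.00129), Dusp1 2.04-fold (adjusted p = 0.00116) and Atf3 1.79-fold (adjusted p = 0.0263). Fosb was 3.76-fold higher (adjusted p = 0.0459) and Klf6 1.30-fold (adjusted p = 0.0385). Egr1 stayed lower, at 0.619 of the BALB/c level (adjusted p = 0.0452), and Fos differed by a log2 value of 0.16 ± 0.35. The sign of the difference was the same with and without these mice for Jun, Junb, Atf3, Klf6 and Egr1, and opposite for Fos, Fosb, Nr4a1, Dusp1 and Ier2. Without replicate 1 instead, 6 members were called, 1 higher and 5 lower in NOD.H-2b. The share of all genes called in that fit is not given here, so this count has no background to be read against.

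Averaged over the 3 ages in a fit of all 18 mice, 4 members were higher in the NOD.H-2b LG and 0 lower, against 32.5% of 19117 genes called higher and 33.1% lower. Atf3 had the largest average difference (log2 1.12 ± 0.18, edgeR adjusted p = 3.38e-05), followed by Jun (0.77 ± 0.26, 0.0178), Klf6 (0.54 ± 0.052, 2.83e-08) and Junb (0.44 ± 0.11, 0.00225). All 4 calls were kept without any 1 of the 18 mice. Fos, Fosb, Egr1, Nr4a1, Dusp1 and Ier2 did not pass. Without BALB/c 6M replicates 2 and 3, 8 members were higher, all but Nr4a1 and Ier2, against 59.4% of 20416 genes called either way. Nr4a1 was at a log2 value of −0.24 ± 0.17 with all mice and of 0.01 ± 0.15 without the pair.

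The strain differences sat beside a large difference in cell content. The 4 pan leukocyte markers summed to 14.7 to 48.1 CPM over the 9 BALB/c mice, and over the NOD.H-2b mice to 71.6 to 166 (2M), 302 to 510 (4M) and 363 to 598 (6M). All 4 were called higher at each age, as were all 6 T cell markers and all 7 macrophage markers. Of the 6 B cell markers, 2 of 2 tested were higher at 2M and 6 of 6 at 4M and at 6M. They summed to at most 1.73 CPM in BALB/c. In NOD.H-2b the sum was 0.772 to 23.9 CPM (2M), 115 to 257 (4M) and 185 to 363 (6M). In bulk tissue, more cells of a type and more RNA per cell cannot be told apart. Leukocytes express most members, and their part in the strain differences was not tested. Other cell types also differed between the strains. At 2M, 4 of 5 fibroblast markers and 4 of 6 ductal markers were called higher in NOD.H-2b. This did not hold at the later ages. Of the fibroblast markers 0 were higher and 1 lower at 4M, and 1 and 0 at 6M. Of the ductal markers 1 was higher and 1 lower at 4M, and 2 and 3 at 6M. The ductal sum was lower in NOD.H-2b at 4M (576 to 774 against 800 to 864 CPM) and at 6M (511 to 613 against 794 to 826 CPM). The 5 endothelial markers summed to 57.7 to 74.2 CPM over the BALB/c mice and to 96.5 to 131 CPM over the NOD.H-2b mice, with no overlap. Only part of this list was called: 2 higher and 1 lower at 2M, 2 and 0 at 4M, and 3 and 0 at 6M. The acinar sum was lower in NOD.H-2b without overlap at 2M (80470 to 83252 against 87224 to 92035 CPM). The same held at 6M (56910 to 70078 against 87152 to 102616 CPM), while at 4M the groups overlapped. Of the 8 acinar markers 2 were called higher and 2 lower at 2M, 1 and 3 at 4M, and 1 and 5 at 6M. The part of these cell types was not tested either. Within the NOD.H-2b groups the members and the leukocyte sum were ordered in mixed ways. At 2M replicate 1 had the lowest leukocyte sum (71.6 CPM), the lowest Fos, Fosb, Junb and Nr4a1 and the highest Jun, Atf3, Egr1, Klf6 and Dusp1. At 4M replicate 1 had the highest sum (510 CPM) and the lowest value in 8 of the 10 members, and at 6M replicate 1 had the highest sum (598 CPM) and the highest value in 9 of 10.

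Within the BALB/c strain, from 2M to 4M, Fos was the only one of 9 tested members that was called (Fosb was under the filter on low counts), 2.04-fold higher at 4M (log2 1.03 ± 0.28, edgeR adjusted p = 0.0352) against 11.1% of 16639 genes called. The Fos call was lost without any of the 2M mice or without 4M replicate 2. From 4M to 6M 0 of 9 members were called, against 0.307% of 16622 genes, although Egr1 and Fos differed most, by 3.89 ± 0.77 and 3.82 ± 1.13 on the log2 scale. Their unadjusted p-values were 0.00623 and 0.0259 and their edgeR adjusted p-values 0.153 and 0.250. DESeq2 called 3 members in this comparison, and 4 members had an unadjusted edgeR p under 0.05. The share of all genes by either measure is not given, so these counts have no background to be read against. From 2M to 6M, which shares its 2M and 6M mice with the comparisons above, only Klf6 was called (1.21-fold higher, log2 0.28 ± 0.064, edgeR adjusted p = 0.0265), against 5.61% of 16579 genes. The Klf6 call was lost without any of the 2M mice or without 6M replicate 1. BALB/c 6M replicate 1 itself had 3.27 CPM of Fos and 8.69 CPM of Egr1. The 2M and 4M mice of that strain reached at most 2.26 and 2.39 CPM. With 6M replicates 2 and 3 left out, the fitted 2M to 6M change was 4.10-fold for Fos and 4.40-fold for Egr1. That fit leaves 1 mouse at 6M, and Fosb, Jun, Dusp1, Ier2 and Nr4a1 were lower at 6M in it.

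In the NOD.H-2b LG, 0 of 10 members were called from 2M to 4M, against 15.8% of 17763 genes, and 0 from 4M to 6M, against 0.00555% of 18026 genes. At an unadjusted edgeR p under 0.05 there were 2 members in the first of these comparisons and 0 in the second. DESeq2 called 1 and 0. Shares of all genes by these measures are not given, so these counts also lack a background. From 2M to 6M 3 members were called, against 40% of 18008 genes. Egr1 rose 1.73-fold (log2 0.79 ± 0.22, edgeR adjusted p = 0.0205). Atf3 fell by 0.74 ± 0.13 on the log2 scale (adjusted p = 0.00297), from 5.11 to 6.11 CPM at 2M to 3.23 to 3.73 CPM at 6M with no overlap. Jun fell by 0.43 ± 0.13 (adjusted p = 0.0312), a call lost in 5 of the 6 fits that left out 1 mouse: any of the 2M mice, or 6M replicate 2 or 3. The Egr1 call was lost without 2M replicate 3 or 6M replicate 1, and none of the 3 calls was kept in the single fit of all 18 mice (adjusted p = 0.0647 for Atf3). Over the same interval all 4 pan leukocyte markers rose. The fibroblast sum went from between 705 and 791 CPM to between 301 and 371 CPM, with 3 of 5 markers called lower, and 5 of 8 acinar and 5 of 6 ductal markers were called lower. The part of these cell types in the Atf3, Jun and Egr1 changes was not tested.

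The strain difference itself changed between 2M and 6M in 4 members, against 16.1% of 19117 genes called either way and 9.09% lower. The change of the log2 difference was −4.61 ± 1.00 for Fos (edgeR adjusted p = 0.0105), −2.92 ± 0.64 for Egr1 (0.0104), −1.55 ± 0.44 for Atf3 (0.0265) and −0.87 ± 0.26 for Junb (0.0387). The first 2 calls were kept without any 1 mouse, and none of the 4 was kept without BALB/c 6M replicates 2 and 3 together, when 5.26% of genes were called. The change was then −1.84 ± 0.56 for Fos (adjusted p = 0.0669) and −1.38 ± 0.40 for Egr1 (adjusted p = 0.0545). From 2M to 4M 0 members were called, against 1.67% of genes. From 4M to 6M 0 members were called, against 0% of 19117 genes, with Egr1 at −3.71 ± 0.64 (unadjusted p = 6.26e-05, edgeR adjusted p = 0.171). At an unadjusted p under 0.05 there were 1 member from 2M to 4M and 4 from 4M to 6M, where DESeq2 called 1 and 2. No share of all genes is given for these measures, so these counts have no background.

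**Figure D4:**
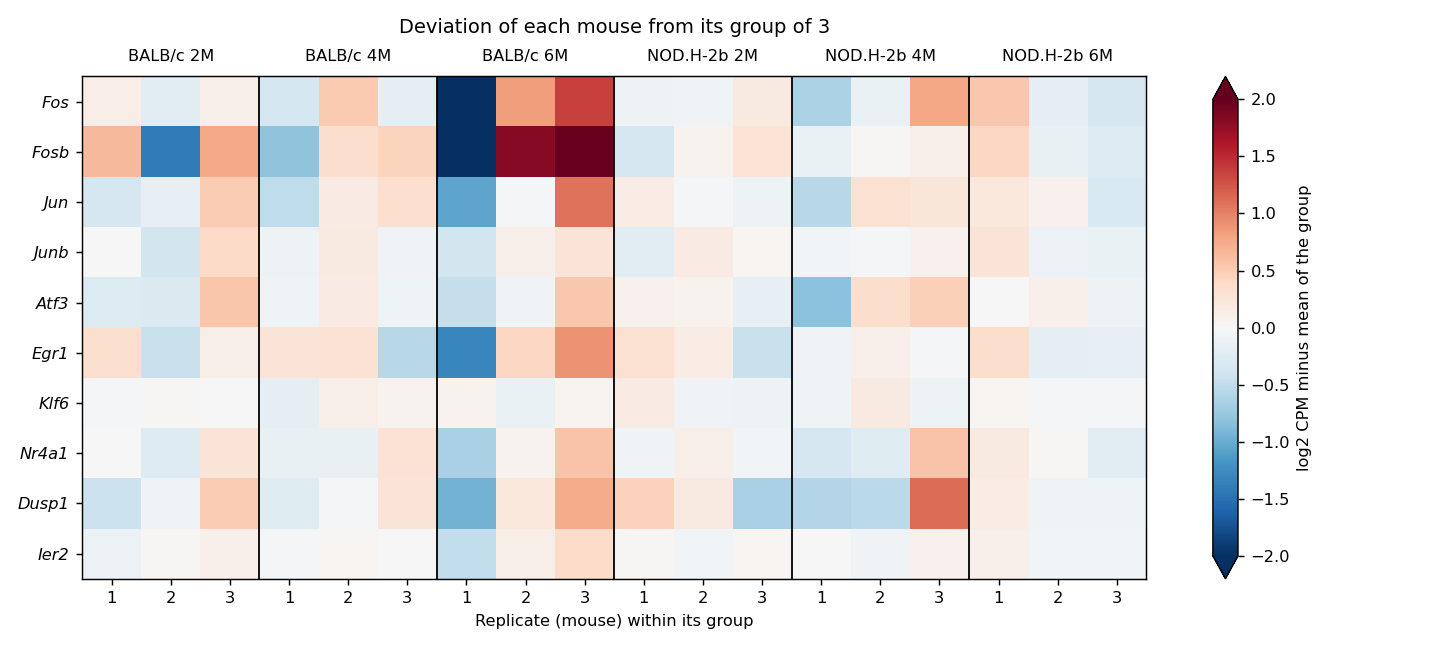
Deviation of log2 CPM of each mouse from the mean of its group of 3, for the 10 members (rows) and 18 mice (columns), with colours limited to ±2. BALB/c 6M replicate 1 is blue and replicate 3 red in all members but Klf6, and smaller deviations of one sign run down other columns.

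Mice of 1 group tended to deviate together across the members. Of the 45 pairs of members, 38 had a positive Pearson r between their deviations from the group means over the 18 mice, with a median of 0.68 and a range from −0.14 to 0.91. This is a description, since the pairs share libraries and the BALB/c 6M mice weigh heavily. BALB/c 6M replicate 1 was the lowest of its group in 9 members and replicate 3 the highest in 9, with mean deviations of −1.16 and 0.83 on the log2 scale. In the NOD.H-2b 4M group replicate 3 was the highest in 7 members (mean deviation 0.33) and replicate 1 the lowest in 8 (−0.33). NOD.H-2b 6M replicate 1 was the highest in 9 (0.22), BALB/c 4M replicate 1 the lowest in 9 (−0.22) and BALB/c 2M replicate 3 the highest in 7 (0.33).

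The genes whose deviations were most like the mean deviation of the members were Zfp36 (r = 0.89, rho = 0.72), Btg2 (0.88, 0.78), Cyr61 (0.84, 0.44) and Ccl25 (0.82, 0.72), among 11434 candidates over 18 mice. Tppp3 (0.81, 0.53), Gng5 (0.80, 0.59), Nup205 (0.79, 0.75) and Krt17 (0.79, 0.28) followed. Zfp36 encodes an RNA-binding protein that destabilizes cytokine transcripts, and Btg2 an antiproliferative cofactor; both are themselves known as immediate early genes. Without BALB/c 6M replicates 1 and 3, the 2 mice farthest from the median, r was 0.59 for Zfp36, 0.58 for Btg2, 0.64 for Ccl25 and 0.57 for Nup205. For Tppp3 it was then 0.32, for Cyr61 0.23 and for Krt17 0.11, so these likenesses rest on those mice, and for Gng5 it was 0.54. Zfp36 was at 18.5, 30.2 and 35.8 CPM in the BALB/c 6M mice and Btg2 at 12.7, 24.3 and 38.0 CPM.

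A wider list of 40 other immediate early genes, chosen like the members with earlier results known, was counted in the same way. Of 35 tested at 2M, 19 were called higher and 1 was called lower, where 22.5% and 17.2% of all genes were. Of 35 at 4M, 16 were higher and 2 lower (23.4% and 19.2% of all genes), and of 36 at 6M, 15 and 7 (28.6% and 25.8%). No test was made of the list as a whole. The medians of their log2 fold changes were 0.50, 0.32 and 0.32, beside 0.01, 0.00 and 0.00 for all genes tested. Without BALB/c 6M replicates 2 and 3 only 1 BALB/c mouse is left at 6M, so the counts of that fit are not given. Fosl1, Jund, Egr2 and Egr4 had too few counts to be tested at any age, and Jund, with 0 to 8 counts per library, overlaps an antisense gene, Gm11175, over 877 exon bases.

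Of that list, 7 genes were higher and 1 lower at all 3 ages. Dusp2, a MAP kinase phosphatase of lymphoid cells, was at 0.0203 to 0.641 CPM over the 9 BALB/c mice and reached 5.50 to 8.18 CPM in the NOD.H-2b 6M mice, with log2 differences of 2.00, 3.99 and 4.75. Nr4a3, a relative of Nr4a1, was at 0.191 to 2.06 CPM in BALB/c and at 2.00 to 7.37 CPM in NOD.H-2b, with log2 differences of 3.09, 2.66 and 2.86. The Nr4a1 transcript itself was called at no age. Ier5 (0.90, 0.98 and 1.70), Nfkbiz (0.81, 1.42 and 1.28), an atypical IκB protein, and Socs3 (0.75, 0.85 and 1.53), an inhibitor of cytokine signalling, were higher by smaller log2 differences. Myc, which drives growth and proliferation, was the gene that was lower at all ages (−0.55, −0.67 and −1.06). The edgeR adjusted p of these 6 genes ran from 8.44e-07 to 0.0110.

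Of 22 kinases and factors that act on the members, 6 were higher and 5 lower at 2M, 6 and 6 at 4M, and 7 and 6 at 6M, to be read beside the same shares of all genes. Srf, which encodes serum response factor, was lower in NOD.H-2b at every age (log2 −0.76, −0.34 and −0.31), as was Rps6ka1, a kinase downstream of ERK (−0.84, −0.32 and −0.51). The Srf partners Elk3 (0.46, 1.12 and 1.25) and Elk4 (0.25, 0.69 and 0.99) were higher, with Crem (0.88, 0.58 and 0.87), a cAMP response factor, and Map2k1 (0.45, 0.51 and 0.60), which activates ERK. The edgeR adjusted p of these 6 ran from 8.52e-06 to 0.0299. In all, 5 genes of this list were higher and 4 lower at all 3 ages. The rest of them were Mkl1 (0.17, 0.34 and 0.79), Mapk3 (−0.26, −0.48 and −0.315) and Map2k2 (−0.17, −0.20 and −0.27). Among 12 heat shock genes 1, 1 and 0 were higher and 2, 1 and 1 lower at the 3 ages. Hspd1, the mitochondrial chaperonin, was the only one called the same way at each age (−0.39, −0.25 and −0.42, edgeR adjusted p from 0.000850 to 0.0249).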

How the data were processed

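Each of the 18 LGs, 1 per mouse, was processed by the authors into raw counts per Ensembl gene. Per the labels and methods, rRNA-depleted paired-end libraries were trimmed with cutadapt, mapped to GRCm38 with STAR and counted with HTSeq. Which annotation release was used and whether counting was stranded are not given in the sources used here. The deposited counts were used as they are, and the authors' DESeq2-normalized table was not used. GENCODE M21 named 54165 of 54232 genes.

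Comparisons of 2 groups were fitted on their 6 mice, averages over ages and strain-by-age contrasts on all 18, with edgeR 4.0.16 in R 4.3.3 (TMM, filterByExpr, robust quasi-likelihood test, Benjamini-Hochberg adjustment over all genes tested, threshold 0.05). Levels are CPM on TMM library sizes. Deviations are log2 CPM (prior count 2) minus the group mean. The named genes were all members, from each other list up to 6 genes called 1 way at all 3 ages with the largest mean difference, and the 8 genes most like the members. The members and lists were chosen with earlier results of these data known. Replicate numbers were shared across groups, but same-numbered mice did not deviate together. The scripts were tested on simulated data. Alternatives were other normalizations, filters, DESeq2 1.42.0, the replicate number as a block, 1 fit of all mice and leaving out each mouse. Leaving out BALB/c 6M replicates 2 and 3 together was added after seeing the data. Replicates of a group differed by at least 16.4 in chi-square per gene, so none was the same library. With 3 mice per group, p-values rest on few animals.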

Additional observations from a re-analysis of the deposited data

Results flagged for a closer look

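In 4 members the strain difference changed between 2M and 6M by the test of the change itself (edgeR's quasi-likelihood test over 18 mice). The log2 change of the difference, 6M minus 2M, was −4.61 for Fos, −2.92 for Egr1, −1.55 for Atf3 and −0.87 for Junb. The log2 difference was 2.00 at 2M and −2.60 at 6M for Fos, of which the second did not pass its own test, and 0.68 and −2.23 for Egr1. It was 1.90 and 0.34 for Atf3 and 1.01 and 0.13 for Junb. BALB/c 6M replicates 2 and 3 had 26.9 and 38.9 CPM of Fos and 28.7 and 40.4 CPM of Egr1, against 3.27 and 8.69 CPM in replicate 1. With both left out, 0 members were called in this contrast. The part of handling, depth or the heat shock genes of replicate 3 was not tested.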

How the results depend on the processing

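All counts here and in the next paragraph are of members called by adjusted p. Except where stated above, the share of all genes called in the same alternative fit is not given. A shift in a count therefore cannot be told apart from a shift in the share of all genes called. For the strain difference, 1 fit of all 18 mice called 3 at 2M, 3 at 4M and 5 at 6M. At 6M no filter on low counts gave 1, DESeq2's Wald test 4, the replicate block 1, and leaving out BALB/c 6M replicates 2 and 3 together 6. In BALB/c from 2M to 4M the replicate block and the 18-mouse fit gave 0. From 4M to 6M no filter gave 1, DESeq2 3, the 18-mouse fit 3 and leaving out the 2 mice 1. From 2M to 6M no filter gave 2, DESeq2 4, the block 2, the 18-mouse fit 3 and leaving out the 2 mice 3. For the NOD.H-2b mice between 2M and 4M no filter gave 2 and DESeq2 1, and from 2M to 6M the 18-mouse fit gave 0. The average strain difference was called in 8 without the 2 mice. For strain by age, DESeq2 gave 1 from 2M to 4M and 2 from 4M to 6M, and from 2M to 6M no filter gave 2 and leaving out the 2 mice 0.

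Leaving out 1 mouse at a time gave 3 to 5 at 2M (3 without NOD.H-2b replicate 2), 3 to 7 at 4M (3 without BALB/c replicate 1 or 3 or NOD.H-2b replicate 2) and 1 to 6 at 6M (6 without BALB/c replicate 1, and 1 without BALB/c replicate 2 or any NOD.H-2b mouse). In BALB/c it gave 0 to 2 from 2M to 4M, 0 to 4 from 4M to 6M and 0 to 4 from 2M to 6M, with 4 each time 6M replicate 1 was left out. For NOD.H-2b it gave 0 to 1 between 2M and 4M and between 4M and 6M (1 without 2M or 4M replicate 1) and 2 to 3 between 2M and 6M. It gave 4 to 6 for the average, 2 to 6 for strain by age from 2M to 6M and 0 to 4 from 4M to 6M. The causes of these shifts were not tested.

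Of the other alternatives, 226 kept a count within 1.5 times, and no called value changed sign. Replicate numbers came only from sample names. Same-numbered mice of 2 groups correlated by −0.30 to 0.30 in their deviations, not above 0.1 in every pair of any comparison, so the block pairs nothing known. Fosb, at 1 to 20 counts in most BALB/c libraries, is limited by depth.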
